A study of Rattus norvegicus with 8 samples.

Results

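ER chaperones and the genes of the unfolded protein response were followed in cultures of rat semicircular canal duct (SCCD) epithelium with and without dexamethasone, a synthetic glucocorticoid. The set holds 39 genes listed by function. Of these, 37 had a probe set on the array, at 49 probe sets in all among the 15866 that are not controls, which carry 10408 gene symbols. Atf6 and Ern1, a pair of stress sensors, had no probe set with their symbol. A gene with several probe sets is given by the one with the highest mean signal, and 36 genes were past the filter on low signals, a mean of at least 100 over the 8 arrays. A probe set is a group of short probes for 1 transcript, and its signal is in arbitrary units.

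The SCCD epithelium lines the semicircular canals of the inner ear and moves ions into and out of endolymph. Wistar pups, 3 to 5 days old, gave the cells, which were raised as primary cultures on porous membranes. RNA was taken from 4 cultures treated with 100 nM dexamethasone and from 4 untreated control cultures, and 1 Affymetrix array of each culture was analysed here. The sources used here do not state how long the cultures for the arrays were treated, nor whether treated and control cultures came from the same dissection. The p-values therefore measure the spread between these samples, which may be in part technical. In RNA from whole cultures, fewer cells of a type and less RNA per cell cannot be told apart.

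Proteins that enter the secretory pathway are folded in the endoplasmic reticulum (ER) by chaperones, by lectins that bind their sugar chains, and by enzymes that form disulfide bonds. When unfolded proteins build up, the sensors PERK (Eif2ak3), IRE1 (Ern1) and ATF6 start the unfolded protein response, which slows protein synthesis and raises the transcription of chaperones and of the machinery that degrades misfolded proteins. Membrane proteins such as ion channels are made through the same route.

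With dexamethasone none of the 36 ER genes tested differed from control past the threshold. By limma, a linear model that shares the estimate of spread across probe sets, with Benjamini-Hochberg adjustment over all 10368 probe sets tested, 0 of 36 passed an adjusted p of 0.05, where 279 of all probe sets (2.69%) did, 195 of them higher with dexamethasone (1.88%) and 84 lower (0.810%). The smallest adjusted p of an ER gene was 0.265, that of Vcp. At an unadjusted p under 0.05 there were 3 ER genes, Vcp, Edem1 and Fkbp2, where 16.1% of all probe sets were under that limit. The log2 fold changes, dexamethasone over control, lay between -0.36 for Fkbp2 and 0.34 for Dnajb9, with 16 genes above 0 and 20 below. Their median was -0.0074, beside -0.023 over all probe sets tested. Known targets of the treatment were high in the treated cultures. Sgk1, a kinase induced by glucocorticoids, had signals of 3358 ± 409 with dexamethasone and 370.4 ± 67.2 in control (SD, n = 4 each), a log2 fold change of 3.19 (limma, adjusted p = 1.09e-06). Fkbp5, which binds the steroid receptor with HSP90, and Tsc22d3 (GILZ), another textbook steroid target, had log2 fold changes of 2.14 and 2.16 and also passed.

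The intervals show how large a change the 8 arrays leave possible. For 17 of the 36 ER genes (47.2%) the 95% interval of the log2 fold change lay within 0.38 of 0 on either side, which is a fold of 1.3. This was so for 20.0% of all probe sets tested and for 34.5% of the genes tested in 7 further lists described below. The ER genes and the lists are counted at the strongest probe set of each gene, all probe sets at every one past the filter. These shares were not matched for signal level. By list that share ran from 18.75% (signalling partners of the unfolded protein response) to 59.1% (protein entry into the ER). Among the ER genes the narrowest intervals were those of Pdia6, Ssr4 and Pdia3, and the widest was that of Hyou1, 95% interval -1.09 to 1.20. The median standard error was 0.12 for the ER genes and 0.16 for all probe sets. By the fold rule of the study's methods, taken here as the median log2 ratio over the 16 pairs of a treated and an untreated array, 0 ER genes were past a fold of 1.3 in either direction, where 7.35% of all probe sets were past it upwards and 7.06% downwards. Every dexamethasone array lay above every control array for 0 ER genes (5.57% of all probe sets) and below for 1, Dnajb11 (5.46%).

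**Figure D1:**
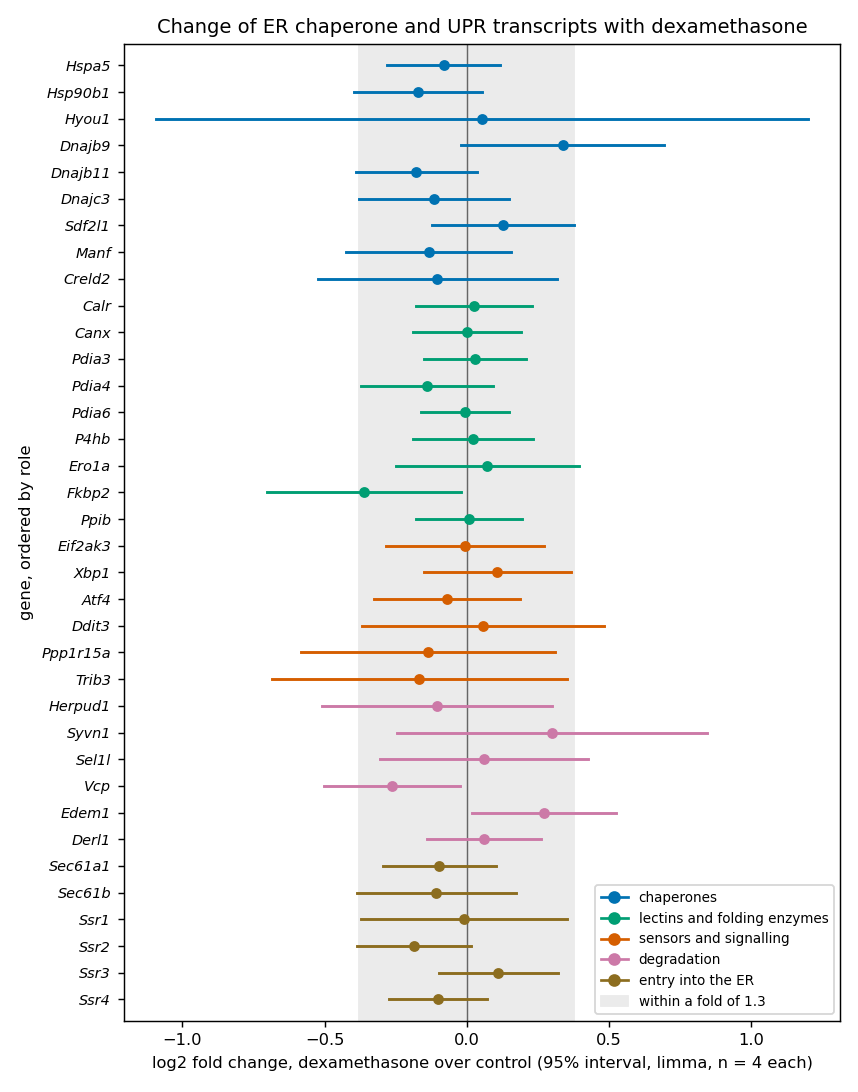
Log2 fold changes of the 36 tested ER genes (x axis, dexamethasone over control, points) with 95% intervals from limma (lines, n = 4 arrays each), ordered by role. The points lie between -0.36 and 0.34, and the shaded band marks a fold of 1.3.

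**Figure D2:**
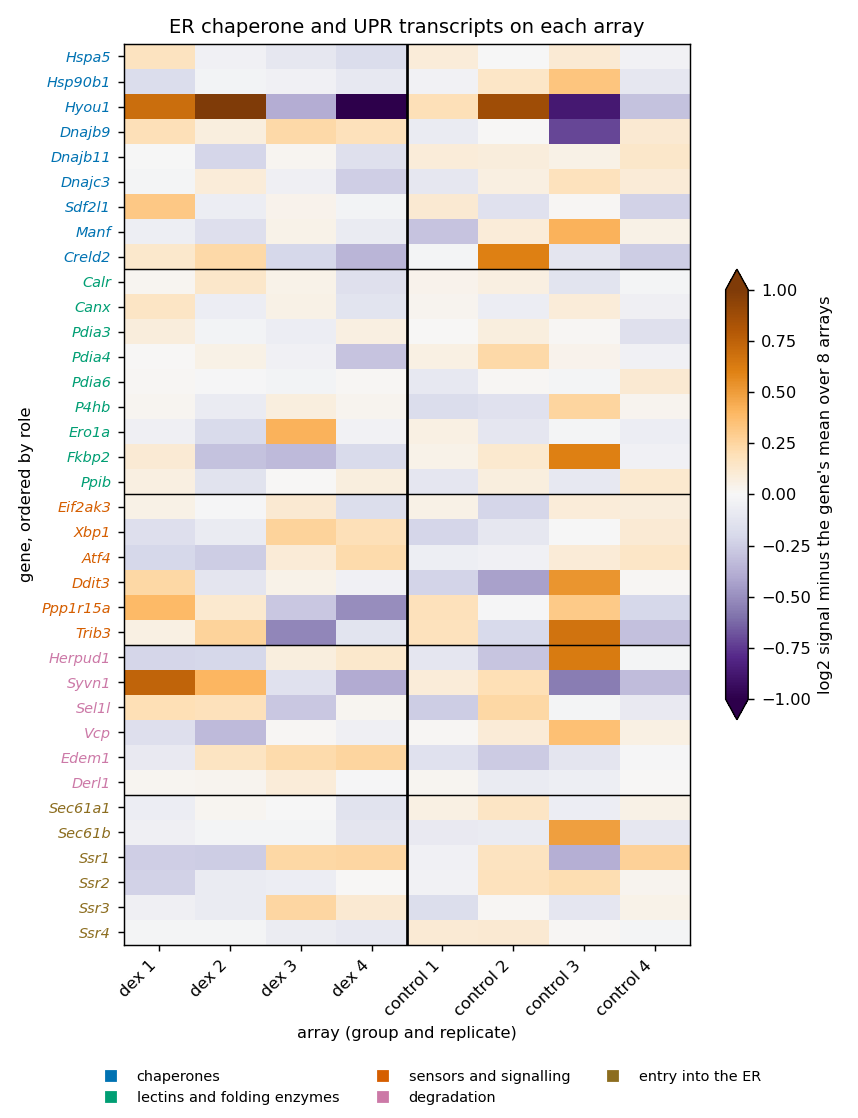
Log2 signal of each ER gene on each array minus the gene's mean over the 8 arrays (colour), with genes in rows by role and arrays in columns by group and replicate. No block of rows separates the 4 dexamethasone arrays from the 4 control arrays. Among the largest deviations of a single array are those at Hyou1, Syvn1, Dnajb9 and Trib3.

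The arrays differed in scaling and in a measure of RNA quality. As deposited, replicates 1 and 2 of both groups had a trimmed mean signal of 500.1 and replicates 3 and 4 one of 202 to 336, so every array was rescaled to 500. The factor was 1.49 to 1.55 for 3 of these arrays and 2.48 for control replicate 3. The ratio of 3' to 5' signal of beta-actin, which rises as RNA is shortened, was 6.17 to 8.07 on the dexamethasone arrays, against 8.10 to 13.7 on the control arrays (two-sided p = 0.0286 by an exact permutation test, which can go no lower with 4 against 4), while that of GAPDH overlapped (p = 0.971 by the same exact test). With the beta-actin ratio as a covariate 0 ER genes passed the test, and the smallest adjusted p was 0.347 (limma). The ratio did not overlap between the groups, so this fit cannot separate RNA quality from the treatment. Of the epithelial markers with a probe set, 12 of 12 were above silent genes (on each array, the 95th percentile over probe sets of genes that belong to other tissues) on all 8 arrays. Fibroblast markers were above them on all arrays for 5 of 12, with Col6a3, Dcn, Lum, Pdgfra and Thy1 on none. Markers of melanocytes, of neurons and Schwann cells, and of macrophages and plasma cells were above them on all arrays for 0 of 2, 1 of 8 and 1 of 10. Summed signals of endothelial markers were 2806 to 3354 with dexamethasone, against 1006 to 1289 in control, with 1 of 7 above silent genes on all arrays and Pecam1, Tie1, Vwf, Emcn and Eng on none. The strongest of them, Kdr, was higher with dexamethasone (log2 fold change 2.00, limma adjusted p = 2.98e-05), while Flt1, the only other one tested, was lower (-1.96, limma adjusted p = 0.0200). Flt1 was above silent genes on 2 of the 8 arrays. With dexamethasone it was at 19.3 to 85.8, under the silent level of 166 to 224 there, so the size of its change is not a measured one. The sums of cartilage and bone markers were 11313 to 13680.1 with dexamethasone, against 3180.4 to 7972 in control, with 4 of 8 above on all arrays and Acan, Comp, Bglap and Ibsp on none. Of the 5 tested only Spp1 passed (3.69, limma adjusted p = 7.97e-06), and the other 4 had log2 fold changes of -0.13 to 0.79. Of the 12 epithelial markers, all tested, 1 was called lower with dexamethasone and 0 higher (limma, smallest adjusted p 0.0300). Their log2 fold changes lay between -0.47 and 0.31. The part of all these markers in the values below was not tested. Among the ER genes, 31 of 37 were above silent genes on all 8 arrays, 5 on some (Hyou1 on 2, Trib3 and Sel1l on 6, Ppp1r15a and Syvn1 on 7) and Pdia2 on none.

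Sensors and signalling genes gave no call in 6 of 6 tested, with a median log2 fold change of -0.038. Signals are listed in the order of replicates 1 to 4, in arbitrary units after rescaling. Hspa5 encodes BiP, the main chaperone of the ER lumen, which also keeps the sensors inactive and is the usual readout of ER stress. Its signals were 5392, 4655, 4458 and 4242 with dexamethasone, against 5123, 4782, 5171 and 4697 in control. Dexamethasone replicate 1 was the highest array of all and the other 3 dexamethasone arrays were below every control array, so the groups overlapped through a single array. The log2 fold change was -0.082 (95% interval -0.28 to 0.12, limma adjusted p = 0.720), an interval that leaves out a fold of 1.3 in either direction.

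Eif2ak3 (PERK), the sensor kinase that slows translation, had signals of 389, 372, 408 and 335 with dexamethasone, against 390.3, 325, 401 and 397 in control. Each group held 1 lower array, dexamethasone replicate 4 and control replicate 2, and the others lay close together. The difference was -0.0060 on the log2 scale (95% interval -0.28 to 0.27, limma adjusted p = 0.988). Xbp1, the transcription factor whose mRNA IRE1 splices, had signals of 2134, 2252, 2851 and 2725 with dexamethasone, against 2055, 2208, 2379.5 and 2563 in control. In both groups replicates 3 and 4 were above replicates 1 and 2, and the groups overlapped. Its log2 fold change was 0.11 (95% interval -0.15 to 0.37, limma adjusted p = 0.716). The array reads the amount of Xbp1 transcript and not its splicing.

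Atf4, the transcription factor translated when PERK is active, had signals of 2798, 2706, 3442 and 3762 with dexamethasone, against 3092, 3123, 3452 and 3574 in control. The highest and the lowest arrays were both from dexamethasone cultures and the control arrays lay between them. For Atf4 the log2 fold change was -0.070 (95% interval -0.33 to 0.19, limma adjusted p = 0.827). Ddit3 encodes CHOP, the factor tied to cell death in prolonged ER stress, and had signals of 363, 283, 317 and 300.1 with dexamethasone, against 264, 229, 446 and 310.3 in control. Here the control arrays spread on both sides of all dexamethasone arrays, with control replicate 3 the highest. On the log2 scale Ddit3 differed by 0.057 (95% interval -0.37 to 0.48, limma adjusted p = 0.924), and by 0.24 without control replicate 3.

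Ppp1r15a encodes GADD34, the phosphatase subunit that restores translation, and had signals of 322, 269, 204 and 174 with dexamethasone, against 281, 244, 305 and 213 in control. The dexamethasone arrays spread on both sides of the control arrays. Trib3, a pseudokinase induced downstream of ATF4 and CHOP, had signals of 218, 251, 146 and 191 with dexamethasone, against 236, 182, 333 and 169 in control. Control replicate 3 was the highest and dexamethasone replicate 3 the lowest, and the groups overlapped. Log2 fold changes were -0.14 for Ppp1r15a (95% interval -0.58 to 0.31, limma adjusted p = 0.804) and -0.17 for Trib3 (95% interval -0.69 to 0.35, limma adjusted p = 0.791). Without control replicate 3 the log2 fold changes were -0.057 for Ppp1r15a and 0.029 for Trib3, which turned its sign. Both intervals include a 1.3-fold decrease, which these arrays thus do not exclude, and leave out a 1.3-fold increase.

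Chaperones gave 0 calls among 9 tested genes, 3 with a log2 fold change above 0 and 6 below, with a median of -0.10. Dnajb11 (ERdj3), a co-chaperone that brings unfolded proteins to BiP, had signals of 1339, 1157, 1360.4 and 1209.5 with dexamethasone, against 1433, 1421, 1389.5 and 1474 in control. Every dexamethasone array lay below every control array, the only such ER gene (two-sided exact permutation p = 0.0286, its lowest possible value). The step was small, -0.18 on the log2 scale (95% interval -0.39 to 0.035), and did not pass limma's test over all probe sets (adjusted p = 0.414).

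Dnajb9 (ERdj4), a co-chaperone of BiP that takes part in degradation, had the highest log2 fold change of the set. Its signals were 1042, 959.8, 1070.4 and 1038 with dexamethasone, against 865, 918, 557 and 987 in control. Dexamethasone replicates 1, 3 and 4 were above every control array, and control replicate 3 stood well under the rest. The log2 fold change was 0.34 (95% interval -0.021 to 0.70, limma adjusted p = 0.347), and 0.16 without control replicate 3. Hsp90b1 (GRP94), the HSP90 of the ER, had signals of 3615, 3997, 3967 and 3803 with dexamethasone, against 3977, 4514, 5144 and 3790.0 in control. Control replicates 2 and 3 were above all dexamethasone arrays and control replicate 4 was inside their range. For Hsp90b1 the log2 fold change was -0.17 (95% interval -0.40 to 0.055, limma adjusted p = 0.468), and -0.088 without control replicate 3.

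Sdf2l1, a partner of ERdj3 that keeps proteins from aggregating, had signals of 2968, 2279.5, 2441 and 2342 with dexamethasone, against 2576, 2153, 2408 and 2034 in control. Dexamethasone replicate 1 was the highest and control replicate 4 the lowest, with overlap between. Sdf2l1 thus had a log2 fold change of 0.13 (95% interval -0.12 to 0.38, limma adjusted p = 0.644). Manf, an ER protein that binds BiP and is secreted when ER calcium falls, had signals of 2411, 2253, 2588 and 2376 with dexamethasone, against 2055, 2680.5, 3359 and 2613 in control. All dexamethasone arrays fell inside the wider range of the control arrays. On the log2 scale Manf differed by -0.13 (95% interval -0.42 to 0.16, limma adjusted p = 0.683), and -0.017 without control replicate 3.

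The other 3 chaperones overlapped between the groups. Dnajc3 (p58IPK), a co-chaperone of BiP, had signals of 445 to 560.5 with dexamethasone and 490.4 to 595 in control, a log2 fold change of -0.12. Creld2, an ER protein with disulfide isomerase activity, had signals of 779.6 to 1173 with dexamethasone and 837 to 1520.3 in control, a log2 fold change of -0.10. Hyou1 (GRP170), the exchange factor that reloads BiP, was at 40.7 to 247 with dexamethasone and 58.7 to 196 in control, a log2 fold change of 0.054, and -0.23 without control replicate 3. It varied most of the 36 genes, with a coefficient of variation of 57.7% over the 8 arrays, and was above silent genes on 2 of them.

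**Figure D3:**
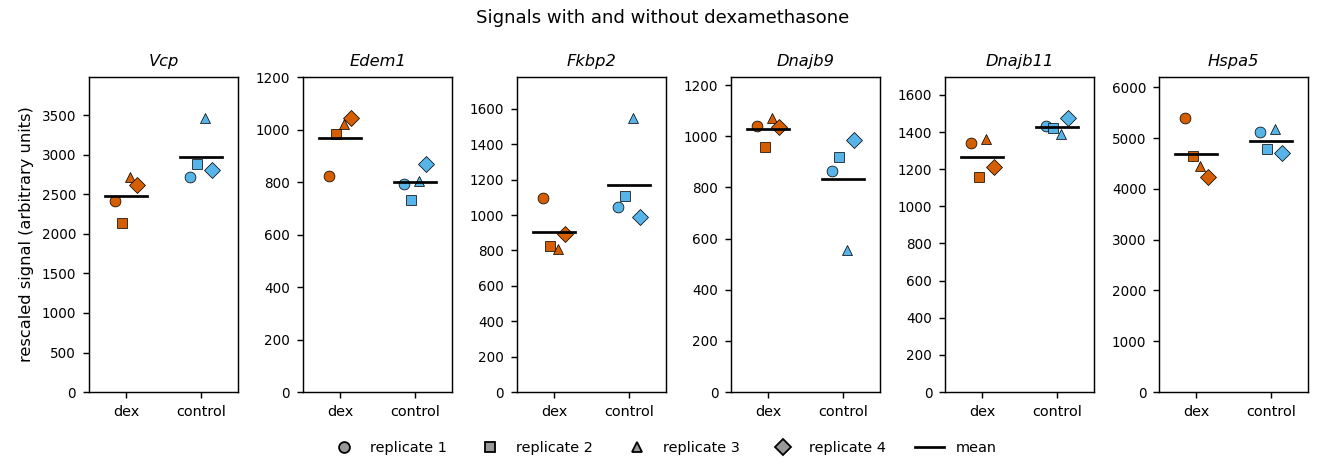
Rescaled signal on each array (y axis, arbitrary units, from 0) for the 3 ER genes with an unadjusted p under 0.05, for Dnajb9, Dnajb11 and for Hspa5. Points are arrays, with the shape for the replicate number, and horizontal lines are group means (n = 4 each). The groups are apart for Dnajb11 alone.

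Lectins and folding enzymes had the lowest median standard error of the 5 roles, 0.093 on the log2 scale, and 0 of 9 tested genes passed. Fkbp2, a prolyl isomerase of the ER, had the lowest log2 fold change of the set. Its signals were 1094, 824, 807 and 891 with dexamethasone, against 1046, 1105, 1547 and 987 in control. Dexamethasone replicates 2, 3 and 4 were below every control array, replicate 1 was inside the control range, and control replicate 3 was far above all. For Fkbp2 the log2 fold change was -0.36 (95% interval -0.70 to -0.021, limma adjusted p = 0.279), and -0.22 without control replicate 3 (adjusted p = 0.497). Pdia4 (ERp72), a disulfide isomerase, had signals of 2151, 2226, 2085 and 1746 with dexamethasone, against 2231, 2515, 2197 and 2082 in control. Dexamethasone replicate 4 was the lowest and control replicate 2 the highest, while the other arrays lay close together. Its log2 fold change was -0.14 (95% interval -0.37 to 0.093, limma adjusted p = 0.574).

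For the other 7 tested genes of this role the log2 fold changes lay between -0.0056 and 0.072. The lectins calreticulin (Calr) and calnexin (Canx) had 0.025 (95% interval -0.18 to 0.23) and 0.00016 (95% interval -0.19 to 0.19). Their partner Pdia3 (ERp57) had 0.030 (95% interval -0.15 to 0.21). The disulfide isomerases Pdia6 and P4hb had -0.0056 (95% interval -0.16 to 0.15) and 0.021 (95% interval -0.19 to 0.23), and the prolyl isomerase Ppib (cyclophilin B) had 0.0075 (95% interval -0.18 to 0.19). All 6 of these intervals, each at the gene's strongest probe set, stay within a fold of 1.3. That of Ero1a, the oxidase that recharges the isomerases, was wider, 0.072 (95% interval -0.25 to 0.39). Pdia2, an isomerase known from the pancreas, had signals of 1.40 to 16.5 with dexamethasone and 1.98 to 12.4 in control and was not tested.

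In the degradation machinery 0 of 6 genes passed, though Vcp and Edem1, a pair with opposite directions, had the smallest unadjusted p of all ER genes. Vcp (p97), the ATPase that pulls misfolded proteins out of the ER membrane, had signals of 2419.6, 2143, 2726 and 2613 with dexamethasone, against 2725, 2886, 3463 and 2807 in control. Dexamethasone replicates 1, 2 and 4 were below every control array and replicate 3 was level with the lowest of them. The log2 fold change was -0.26 (95% interval -0.50 to -0.023, limma adjusted p = 0.265, exact permutation two-sided p = 0.0571), and -0.19 without control replicate 3. Edem1, a lectin that hands misfolded glycoproteins to degradation, had signals of 824, 983, 1023 and 1044 with dexamethasone, against 793, 732, 805 and 871 in control. Dexamethasone replicates 2, 3 and 4 were above every control array and replicate 1 was inside the control range. On the log2 scale Edem1 differed by 0.27 (95% interval 0.020 to 0.52, limma adjusted p = 0.272, exact permutation two-sided p = 0.0571).

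Syvn1 (HRD1), the ubiquitin ligase of ER-associated degradation, had signals of 549, 435, 299 and 251 with dexamethasone, against 351, 378, 223 and 263 in control. Replicates 1 and 2 were high and replicates 3 and 4 low in both groups. Syvn1 thus had a log2 fold change of 0.30 (95% interval -0.25 to 0.84, limma adjusted p = 0.611), and 0.16 without control replicate 3. Its partner Sel1l was at 187 to 261 with dexamethasone and 190.5 to 268 in control, a log2 fold change of 0.061. Herpud1 (HERP), a stress-induced scaffold of the same complex, was at 517 to 658 with dexamethasone and 493 to 928 in control, a log2 fold change of -0.10, and 0.087 without control replicate 3. Derl1 (Derlin-1), a membrane protein of the exit route, was at 1234 to 1325 with dexamethasone and 1174 to 1258 in control, a log2 fold change of 0.062, and had the lowest coefficient of variation of the 36 genes (3.71%).

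Genes of entry into the ER, the Sec61 pore and the TRAP complex beside it, gave 0 calls among 6. Ssr2 (TRAP beta) had signals of 2948, 3267, 3310.1 and 3469 with dexamethasone, against 3380.1, 3900.4, 4000.3 and 3517 in control. Dexamethasone replicates 1, 2 and 3 were below every control array, and replicate 4 was above control replicate 1. For Ssr2 the log2 fold change was -0.19 (95% interval -0.39 to 0.014, limma adjusted p = 0.353). Ssr4 (TRAP delta) had signals of 3340.4, 3348, 3215 and 3170.2 with dexamethasone, against 3639, 3657, 3407 and 3335 in control. Control replicate 4 was just under dexamethasone replicates 1 and 2, and the other 3 control arrays were above all dexamethasone arrays. On the log2 scale Ssr4 differed by -0.10 (95% interval -0.27 to 0.071, limma adjusted p = 0.583).

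Ssr3 (TRAP gamma) went the other way, with signals of 4384, 4301, 5389.8 and 4925 with dexamethasone, against 4061, 4588, 4197 and 4701 in control. The groups overlapped, with dexamethasone replicates 3 and 4 the highest arrays. Its log2 fold change was 0.11 (95% interval -0.098 to 0.32, limma adjusted p = 0.625). Sec61a1, the pore itself, had signals of 2003, 2123, 2088 and 1905 with dexamethasone, against 2181, 2334, 2002 and 2172 in control. Control replicate 3 was level with dexamethasone replicate 1, and the other control arrays were above all dexamethasone arrays. Sec61a1 thus had a log2 fold change of -0.097 (95% interval -0.30 to 0.10, limma adjusted p = 0.661). Sec61b and Ssr1 (TRAP alpha) had log2 fold changes of -0.11 and -0.0088. Of the 6 genes, Ssr3 alone had a log2 fold change above 0.

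Some genes have several probe sets, and these did not always point the same way, although none passed the test. Trib3 had log2 fold changes of -0.17 at its strongest probe set, -0.88 at the next and -0.36 at the third, which was under the filter, but the second was above silent genes on 1 array and the third on 0. Those of Ero1a were 0.072 and -0.34, with the second above silent genes on 0 arrays. For Derl1 they were 0.062, -0.18 and -0.095, and for Ssr3 0.11, -0.14 and 0.038, the third again on 0 arrays. Canx had 0.00016, 0.21 and 0.034, and Pdia3 0.030 and 0.25. Among probe sets above silent genes on all 8 arrays, those of Derl1 and of Ssr3 thus differed in sign.

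Several ER genes are known targets of the stress sensors through short promoter sequences, and the promoters of the set held them. RefSeq promoters of build GRCr8, from 250 bases before to 50 after the start of transcription, were found for 31 of the 39 genes among 33469 promoters. Not among them were Atf6, Ern1, Pdia3, Manf, Derl1, Ero1a, Pdia6 and Sec61a1. The ER stress element (ERSE), read by ATF6 and XBP1 together with the factor NF-Y, was searched on both strands as CCAAT and CCACG with 9 bases of any kind between and occurred in 7 of the 31 (22.6%), against 22 of all promoters (0.0657%). The compact form ERSE-II, ATTGG and CCACG with 1 base between, occurred in 3 of the 31 (9.68%), against 17 of all promoters (0.0508%). A match says only that these letters are present. The sites of 9 of these genes are shown since they carry what the genes share, with their place in GRCr8, the fixed letters in capitals and in the direction of transcription, so that a match on the other strand reads in reverse. Those of ERSE are:
Hspa5 (chr3:38452963-38453001, plus strand): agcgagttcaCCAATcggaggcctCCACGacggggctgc
Hsp90b1 (chr7:23012441-23012479, minus strand): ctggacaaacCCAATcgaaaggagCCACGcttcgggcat
Hsp90b1 (chr7:23012337-23012375, minus strand): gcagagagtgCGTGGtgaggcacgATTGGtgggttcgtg
Dnajc3 (chr15:102432524-102432562, plus strand): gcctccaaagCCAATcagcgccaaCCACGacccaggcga
Creld2 (chr7:121789229-121789267, plus strand): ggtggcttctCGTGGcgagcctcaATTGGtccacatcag
Calr (chr19:40213125-40213163, plus strand): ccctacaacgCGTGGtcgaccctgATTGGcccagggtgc
Xbp1 (chr14:84604548-84604586, plus strand): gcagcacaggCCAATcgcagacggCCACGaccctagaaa
Those of ERSE-II are:
Hyou1 (chr8:53602684-53602714, plus strand): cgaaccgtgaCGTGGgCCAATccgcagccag
Hyou1 (chr8:53602784-53602814, plus strand): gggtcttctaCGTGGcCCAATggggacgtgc
Dnajb11 (chr11:91672790-91672820, minus strand): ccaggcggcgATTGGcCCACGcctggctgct
Herpud1 (chr19:10614811-10614841, minus strand): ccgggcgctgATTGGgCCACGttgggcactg

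The Hspa5 promoter, chr3:38452766-38453065 on the plus strand of GRCr8, is shown whole as the best known of them. Its exact match of ERSE is in capitals, 43 to 25 bases before the start, and inexact copies were not searched for.
Hspa5: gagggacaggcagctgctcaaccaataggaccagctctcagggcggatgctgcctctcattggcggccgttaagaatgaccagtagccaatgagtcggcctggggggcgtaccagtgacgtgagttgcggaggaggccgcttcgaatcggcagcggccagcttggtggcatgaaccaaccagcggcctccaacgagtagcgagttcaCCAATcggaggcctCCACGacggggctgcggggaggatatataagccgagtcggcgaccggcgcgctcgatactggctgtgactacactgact
Counted from the start of transcription, the ERSE sites shown lay between 232 bases before it (Calr) and 25 bases before it (Hspa5), and the ERSE-II of Dnajb11 reached the first transcribed base. The upstream sequence read by XBP1 and ATF6 (UPRE core, TGACGTGG, both strands) was in the promoters of Hyou1, where it overlaps an ERSE-II, and of Vcp, 2 of the 31 (6.45%), against 0.595% of all promoters. The amino acid response core read by ATF4 with a C/EBP partner (TTGCATCA, both strands) was in that of Herpud1, 1 of the 31 (3.23%), against 0.795% of all promoters. The consensus of the glucocorticoid response element, AGAACA and TGTTCT with 3 bases between, on both strands, was in 0 of the 31 promoters, against 5 of all promoters (0.0149%). Of the 2 symbols with this exact consensus 0 were tested, so its absence cannot tell the ER genes from genes that responded. The last sites are:
Vcp (chr5:62025593-62025620, minus strand): tacggccaatTGACGTGGcgttactagg
Herpud1 (chr19:10614874-10614901, minus strand): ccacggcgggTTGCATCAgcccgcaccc

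**Figure D4:**
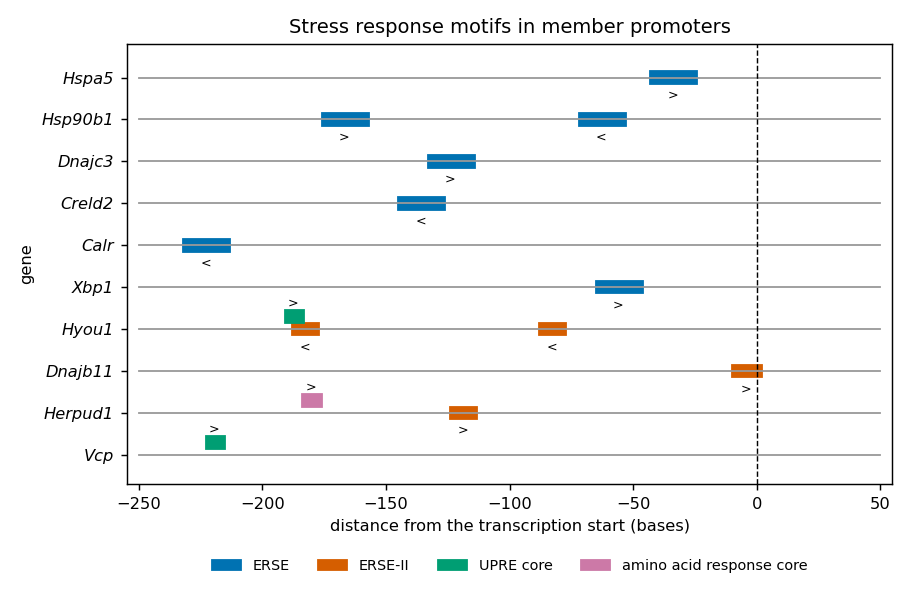
Positions of the stress response motifs in the promoters of 10 ER genes (x axis, distance from the transcription start in bases, dashed line at the start). Boxes are matches coloured by motif, and the arrowheads give the strand. Hsp90b1 and Hyou1 hold 2 matches of the same element.

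None of the ER genes that hold ERSE or ERSE-II passed the test for dexamethasone. All 10 holders of ERSE or ERSE-II were tested, 0 passed (limma), and 0 had an unadjusted p under 0.05, beside 2.69% and 16.1% of all probe sets. Their log2 fold changes lay between -0.18 (Dnajb11) and 0.11 (Xbp1), with a median of -0.093 and 4 of 10 above 0. Among the 20 tested genes whose promoter holds neither element, the median was -0.0074 and the range -0.36 to 0.34, with 9 above 0.

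Replicates 1 and 2 and replicates 3 and 4 form sets of arrays that differ in their scaling as deposited, and a few ER genes differed between these sets. With treatment as a term in the fit, 2 of 36 ER genes differed between replicates 3 and 4 and replicates 1 and 2, where 3.49% of all probe sets did. Syvn1 was at 223 to 299 in replicates 3 and 4, against 351 to 549 in replicates 1 and 2, a log2 difference of -0.71 (limma adjusted p = 0.0231). Hyou1 was at 40.7 to 87.1 in replicates 3 and 4, against 123 to 247 in replicates 1 and 2, a log2 difference of -1.48 (limma adjusted p = 0.0286). Its signals in replicates 3 and 4 were all under the level of silent genes on those arrays, 153 to 265, so the size of that difference is not a measured one. These sets hold both groups in equal number, so they do not run along with the treatment.

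Without passing that test, Creld2 also lay lower on all 4 arrays of replicates 3 and 4, at 779.6 to 916, than on those of replicates 1 and 2, at 985 to 1520.3. Lower without overlap were thus 3 ER genes, where 6.85% of all probe sets were. Higher without overlap in replicates 3 and 4 were 4, where 4.70% of all were. Xbp1 was at 2379.5 to 2851 in replicates 3 and 4, against 2055 to 2252 in replicates 1 and 2. Atf4 was at 3442 to 3762 in replicates 3 and 4, against 2706 to 3123 in replicates 1 and 2. P4hb was at 8625 to 10128 in replicates 3 and 4, against 7516 to 8615 in replicates 1 and 2, and Herpud1 at 592 to 928 in replicates 3 and 4, against 493 to 556 in replicates 1 and 2. Log2 differences, replicates 3 and 4 minus 1 and 2, were 0.28 for Xbp1, 0.28 for Atf4, 0.19 for P4hb and 0.41 for Herpud1 (limma adjusted p = 0.0743, 0.0677, 0.161 and 0.125). Of the cartilage and bone markers, 2 of 5 tested differed between the sets, and of the epithelial ones 0 of 12 (limma). Col2a1 was at 670 to 1233 in replicates 3 and 4, against 1804 to 2325 in replicates 1 and 2 (limma adjusted p = 0.00592). Col9a1 was at 1393 to 1916, against 3039 to 4191 (limma adjusted p = 0.00393). A part of cell content in the ER genes' differences was not tested.

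**Figure D5:**
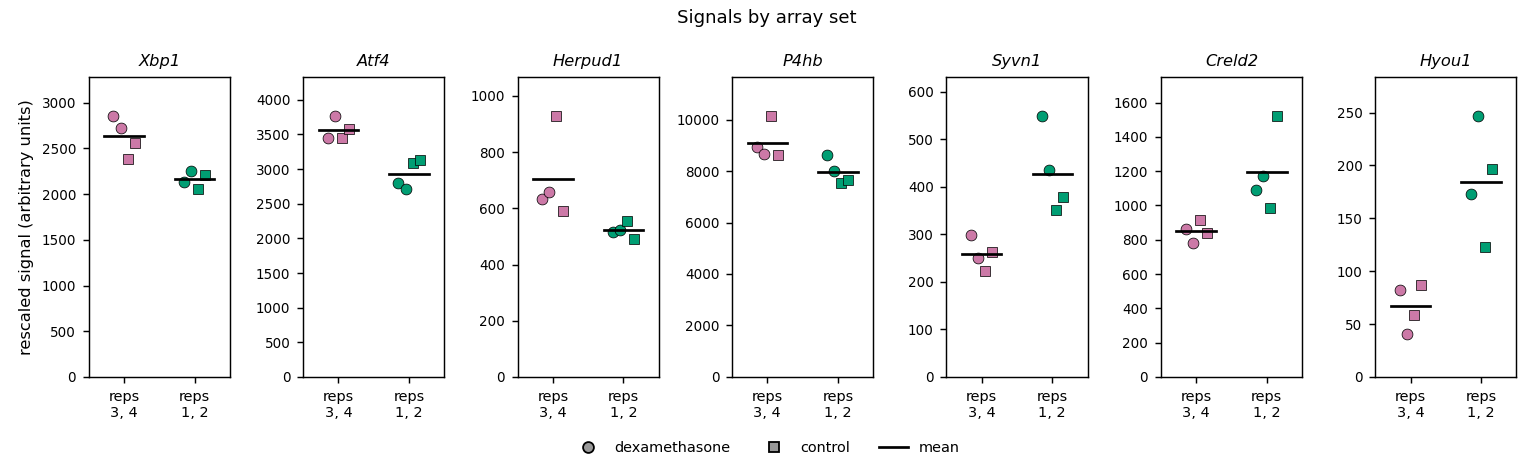
Rescaled signal (y axis, arbitrary units, from 0) of the 7 ER genes whose array sets do not overlap, with replicates 3 and 4 on the left and replicates 1 and 2 on the right of each panel. Circles are dexamethasone arrays, squares control arrays and horizontal lines the means of 4 arrays. Xbp1, Atf4, Herpud1 and P4hb are higher and Syvn1, Creld2 and Hyou1 lower in replicates 3 and 4.

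The effect of dexamethasone within each set was compared too. The sign of the log2 fold change was the same in both sets for 19 of the 36 genes. Ddit3 had log2 fold changes of -0.27 within replicates 3 and 4 and 0.38 within replicates 1 and 2. For Ssr1 they were 0.30 within replicates 3 and 4, against -0.31 within the other set. The difference between the sets' effects passed the test for 0 of 36 genes (limma interaction, smallest adjusted p 0.787). With the array set as a block 0 ER genes passed the test for dexamethasone, where 5.57% of all probe sets did, and the smallest adjusted p was 0.120, again that of Vcp. Control replicate 3 was the highest or lowest control array for 22 of the 36 ER genes (61.1%), beside 63.0% of all probe sets tested. Leaving it out turned the sign of the log2 fold change for 7 of the 36, Hyou1, Calr, Ppib, Eif2ak3, Trib3, Herpud1 and Sec61b.

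Genes of neighbouring pathways were described from 7 further lists, of which 165 genes were tested, and 3 of these were called higher with dexamethasone and 0 lower (limma), beside 1.88% and 0.810% of all probe sets. At an unadjusted p under 0.05 there were 28 of the 165, where 16.1% of all probe sets were under that limit. Targets of ATF4 and the integrated stress response held 2 of the calls among 32 genes, with a list median of -0.041. Nupr1, a small stress-induced chromatin protein, had signals of 1058, 768, 493 and 629 with dexamethasone, against 328, 265, 212 and 319 in control. All dexamethasone arrays were above all control arrays, and its log2 fold change was 1.35 (SE 0.22, limma adjusted p = 0.00682). Ddit4 (REDD1), an inhibitor of mTORC1, had signals of 1571, 1430.0, 2117 and 2027 with dexamethasone, against 1184, 1076, 1103 and 1153 in control. The groups did not overlap, and its log2 fold change was 0.64 (SE 0.13, limma adjusted p = 0.0248), and 0.63 with an adjusted p of 0.0532 without control replicate 3. With the beta-actin ratio as a covariate, the limma adjusted p was 0.212 for Nupr1 and 0.251 for Ddit4. That ratio did not overlap between the groups, so these values cannot separate it from the treatment.

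Other ER folding enzymes gave 1 call among 29 genes, with a list median of -0.12, and 8 with an unadjusted p under 0.05 (16.1% of all probe sets). The call was Nucb2, a calcium-binding protein of the secretory pathway that is not itself an enzyme, at 6409.5, 5326, 6039.8 and 5537 with dexamethasone, against 4472, 4096, 3638 and 3862 in control. All dexamethasone arrays were above all control arrays, and its log2 fold change was 0.54 (SE 0.093, limma adjusted p = 0.00896). With the beta-actin ratio as a covariate, which did not overlap between the groups, the limma adjusted p was 0.166. Every dexamethasone array lay below every control array for 6 of the 29 genes (5.46% of all probe sets) and above for 1 (5.57%).

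The other 5 lists gave 0 calls (limma). Beside their counts at an unadjusted p under 0.05 stands the share of all probe sets, 16.1%. In glycoprotein quality control, with 19 genes tested and 7 at an unadjusted p under 0.05, the smallest unadjusted p were those of Ddost and Stt3b, subunits of the enzyme that attaches sugar chains, and of the lectin Os9. Their log2 fold changes were 0.25, 0.36 and 0.67 (adjusted p = 0.166, 0.176 and 0.179). In protein entry into the ER, with 22 tested and 1 at an unadjusted p under 0.05, Srpra, a subunit of the signal recognition particle receptor, had 0.35, the pore subunit Sec61g -0.21 and the targeting factor Get4 -0.23 (adjusted p = 0.236, 0.363 and 0.396). In ER-associated degradation, with 22 tested and 2 at that limit, the ubiquitin-conjugating enzyme Ube2j1 had -0.35, the Vcp cofactor Ufd1 -0.22 and the ubiquitin ligase Marchf6 0.25 (adjusted p = 0.193, 0.294 and 0.404).

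Of 16 signalling partners of the unfolded protein response, 1 was at an unadjusted p under 0.05 (16.1% of all probe sets), Mbtps1, the protease that cuts ATF6. It was at 962, 991, 847 and 762 with dexamethasone, against 1222, 1041, 1156 and 1075 in control, without overlap, a log2 fold change of -0.34 (limma adjusted p = 0.172). Casp12, a caspase at the ER, had -0.33, and Wfs1 (wolframin), an ER membrane protein, -0.23 (adjusted p = 0.359 and 0.364). Of 25 cytosolic heat shock proteins, 3 were at that limit. Dnajb4, a cytosolic co-chaperone, had signals of 3304, 3004, 4334 and 4733 with dexamethasone, against 2158, 2097, 2331 and 3142 in control. Control replicate 4 was above dexamethasone replicate 2, and the other control arrays were below all dexamethasone arrays. For Dnajb4 the log2 fold change was 0.65 (limma adjusted p = 0.0611, and 0.00395 when the array set was blocked). The small heat shock protein Cryab had 0.30 and Hsp90ab1, a cytosolic HSP90, -0.21 (adjusted p = 0.215 and 0.291), and without control replicate 3 Cryab passed (adjusted p = 0.0252).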

How the data were processed

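RNA of 4 dexamethasone-treated and 4 control SCCD cultures was measured on 8 Affymetrix RAE 230A arrays after labelling with 2 cycles of in vitro transcription. The deposited table holds 1 signal intensity per probe set and array, on a linear scale, computed by the authors with Affymetrix's statistical algorithms, for which the labels state a target of 500. Detection calls and probe-level values were not used here. Each array was multiplied by 1 factor to a trimmed mean of 500 (2% left out at each end), since replicates 3 and 4 were below it, signals under 16 were set to 16, and log2 was taken. Of 15923 probe sets, 57 were controls, and the 10368 with a mean signal of at least 100 were tested. The annotation given with the array names 1 symbol for 12783 probe sets, several genes for 312 and none for 2771.

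The comparison of groups used limma 3.58.1 under R 4.3.3 (lmFit, eBayes with trend, two-sided, Benjamini-Hochberg at 0.05 over all probe sets tested), and single genes with an exact permutation test. The fit was tested on simulated data with independent normal spread, which held no array sets and no outlying array. The number of arrays limits the precision. The members and lists were chosen with earlier results of these data known. Values on all arrays are given for genes past the threshold, for Hspa5, Xbp1, Atf4, Eif2ak3, Ddit3, Ppp1r15a and Trib3, and for the 14 other ER genes with the smallest unadjusted p. Of each other list, the genes past the threshold or otherwise the 3 with the smallest unadjusted p are named. Alternatives were other scalings, filters, floors and fits, blocks for replicate number and array set, single array sets, the beta-actin ratio as a covariate, and leaving out each array. The array set as a block without control replicate 3 was added after the data were seen. One promoter site is not reported here.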

Additional observations from a re-analysis of the deposited data

Results flagged for a closer look

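Within each group of 4 arrays, a gene was singled out where its highest or lowest array stood apart from the other 3 by more than Dixon's limit for the gap as a share of the group's range. Of 114 groups looked at, 72 of them of ER genes, 7 were past the limit, 2 of these of ER genes, and chance alone gives about 1 in 20. Eif2ak3 had a signal of 324.6 on control replicate 2, where the other control arrays were at 390.3 to 401, and Sec61b had one of 5289 on control replicate 3, where the others were at 3500.0 to 3553. Without control replicate 3 the log2 fold change of Sec61b was 0.038, against -0.11 with it. Among the genes of other lists, Ddost was at 2888 on control replicate 1 (others 2650 to 2666), Stt3b at 2288 on control replicate 3 (3224 to 3452) and Get4 at 1505 on control replicate 3 (1117 to 1172). Srpra was at 1319.8 on dexamethasone replicate 2 (others 1682 to 1767), and Hsp90ab1 at 2826 on dexamethasone replicate 4 (3139 to 3153).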

How the results depend on the processing

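The count of ER genes past the test was 0 under every alternative run, with a smallest adjusted p of 0.120 (limma, array set as a block). Of the 21 ER genes given on all arrays, 11 kept the sign of their log2 fold change under every alternative, 3 changed it only on the signals as deposited, where the fold changes of all probe sets are shifted, and 7 changed it under another alternative, in values that passed the test in neither case. The median log2 fold change of the ER genes was 0.156 on the signals as deposited, where the median of all probe sets was 0.14, -0.083 in replicates 3 and 4 alone, and -0.048 to -0.0062 leaving out 1 array. Over all probe sets, against 279, there were 38 calls on the signals as deposited, 102 with no filter, 578 with the array set as a block, 779 with that block without control replicate 3, 440 in replicates 1 and 2 alone, 21 in replicates 3 and 4 alone, 65 with the beta-actin ratio as a covariate, 1494 at a fold of 1.3 with no test, and 180 to 275 leaving out 1 array. For the 7 other lists, against 3, the count was 0 on the signals as deposited, with no filter, in replicates 3 and 4 alone and with the beta-actin covariate, 5 with the array set as a block, 7 with that block without control replicate 3, 6 in replicates 1 and 2 alone, 13 at the fold of 1.3 with no test, and 2 to 4 leaving out 1 array. The cause was not tested, and the beta-actin ratio did not overlap between the groups. Same-numbered samples correlated in their deviations from the group means by 0.352, 0.252, 0.035 and 0.406, and differently numbered ones by -0.408 to 0.430. These values do not settle whether the numbers pair the cultures. The sources used here do not state it, so no pairing was taken in the main fit. With the replicate number as a block 484 probe sets, 5 genes of the other lists and 0 ER genes passed. Among the named genes outside the set, 20 values lost their call under an alternative (of Nucb2, Nupr1 and Ddit4, and once of Fkbp5) and 10 gained one (of Dnajb4 and Cryab), all in the same direction. The widths of the intervals set the smallest change that 4 arrays a group could show.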
